A study of Saccharomyces cerevisiae with 28 samples.

Results

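The comparison described here follows 1 strain of budding yeast, named 4Gts in the labels (source strain YWG1246, YAJ41), between 2 h and 8 h at 36 °C. Members were every library of this strain grown in synthetic complete (SC) medium, 8 of the 28 samples in the series, which are a ribosome footprint library and an mRNA library from each of 4 cultures (2 replicates at 2 h and 2 at 8 h). All cultures were grown at 25 °C in medium with 2% raffinose, given 2% galactose for 30 min, and then moved to 36 °C. Cells were harvested with cycloheximide at 0.1 mg/ml over ice. The wild-type strain (WT, YWG1245, YAJ3) went through the same galactose and heat steps, with another 8 SC libraries, and is used only to set the change over time in 4Gts beside that in WT. The series is on yeast depleted of eIF4G. The labels name the strain but give neither the alleles it carries nor the promoter that drives them, and the protein level of eIF4G was not measured here. They do not say whether replicates were separate cultures started from separate colonies, so a p-value here speaks only of the spread among these samples, which may be technical.

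eIF4G is the scaffold of the cap-binding complex eIF4F: it joins the cap-binding protein eIF4E, the RNA helicase eIF4A and the poly(A)-binding protein Pab1, and brings the small ribosomal subunit to the mRNA. Budding yeast makes it from a pair of genes, TIF4631 and TIF4632. Ribosome profiling sequences the stretches of mRNA that ribosomes protect from nuclease. Dividing a gene's footprint level by its mRNA level gives its translational efficiency (TE), a measure of ribosome load per mRNA relative to the other genes.

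Values are deposited RPKM (reads divided by gene length and by library size) or, for TE, footprint over mRNA RPKM. They are relative levels within a library, so a change shared by all mRNAs, or by all ribosomes, is not visible. Less RNA per cell and fewer cells cannot be told apart in such bulk samples. Differences are given as log2 of 8 h over 2 h within the replicate 1 pair and within the replicate 2 pair, on the log2(RPKM + 1) scale after scaling each library by its median ratio to the other libraries. A difference can therefore depart from the plain ratio of the printed RPKM, and overlap between times was judged on the scaled values. Of 6692 genes in the tables, 4689 averaged 10 RPKM or more in the footprint table and in the mRNA table and were tested with limma, with Benjamini-Hochberg adjustment over all of them and a threshold of 0.05.

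Depth, as read from the steps between low values, was 4.59 to 9.48 M (mega) reads in the 4Gts footprint libraries and 3.92 to 14.9 M reads in the 4Gts mRNA libraries, the shallowest being the replicate 2 mRNA library at 2 h. Counting error alone for a 1 kb gene at 10 RPKM came to 10.3% to 14.8% in footprints and 8.18% to 16% in mRNA. The replicates stood apart. Log2 mRNA levels of the 2 h and 8 h cultures of the same number correlated at 0.991 in replicate 1 and 0.962 in replicate 2 over 4689 genes, against 0.934 between the replicates at 2 h and 0.900 between them at 8 h. Footprints behaved alike, with 0.994 and 0.974 within a number against 0.943 and 0.900 between numbers. The summed mRNA RPKM of 7 genes that mark haploid a cells was 9205 and 9386 in replicate 1 (2 h and 8 h) and 2708 and 1159 in replicate 2. That of 4 alpha-cell genes was 43.1 and 48.1 in replicate 1 and 56.1 and 66.3 in replicate 2, and that of 5 sporulation genes was 18.4 to 33.9, low in every culture but not 0. All later values carry this replicate difference, and its part in them was not tested.

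The question was which genes differed between 2 h and 8 h of the shift in the depleted strain, and whether both replicate pairs gave the same direction. No gene passed the test in any of the 3 measurements. The lowest limma adjusted p was 0.999 for mRNA, 1 for footprints and 0.996 for TE, so no gene named below is called changed. Unadjusted limma p-values under 0.05 numbered 41 for mRNA, 12 for footprints and 167 for TE of 4689 genes. The median standard error of the log2 difference was 0.32 for mRNA, 0.33 for footprints and 0.22 for TE. This fit, which gave the standard errors of the genes named below, did not use the replicate number. The standing difference between replicates therefore entered its spread, and same-numbered 4Gts cultures deviated together (r = 0.77, 0.88 and 0.43 over genes). So did same-numbered cultures of 4Gts and WT. Among all strain and time groups r ran from 0.56 to 0.93 in mRNA, 0.68 to 0.96 in footprints and 0.14 to 0.60 in TE. A fit with a replicate block put more genes under an unadjusted p of 0.05, also with no call, as given in the section on processing. WT gave no call either (lowest adjusted p 0.97, 1 and 0.145; 3, 3 and 25 genes at an unadjusted p under 0.05). The difference between the time course of 4Gts and that of WT was past the threshold for no gene in any measurement (lowest adjusted p 1, 1 and 0.0793; 16, 5 and 90 genes at an unadjusted p under 0.05).

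The replicate 2 pair differed more than the replicate 1 pair. The standard deviation of the log2 mRNA difference over genes was 0.24 in replicate 1 and 0.50 in replicate 2, that of footprints was 0.22 and 0.43, and that of TE was 0.28 and 0.43. In WT these values lay between 0.18 and 0.25. In replicate 2, 144 mRNAs were more than 2-fold higher and 114 more than 2-fold lower at 8 h, against 4 and 10 in replicate 1. Both pairs pointed the same way for 56.6% of genes in mRNA, 57% in footprints and 52% in TE. Across genes, which are not independent replicates, the log2 differences of the pairs correlated at 0.16 for mRNA, 0.23 for footprints and 0.08 for TE. The WT pairs gave 0.17, 0.29 and 0.07. Gene length tracked the footprint difference with a Spearman rho of 0.26 in replicate 2 and 0.07 in replicate 1 (4609 genes with a length), the longer genes being higher at 8 h, and its part in the footprint values was not tested.

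**Figure D1:**
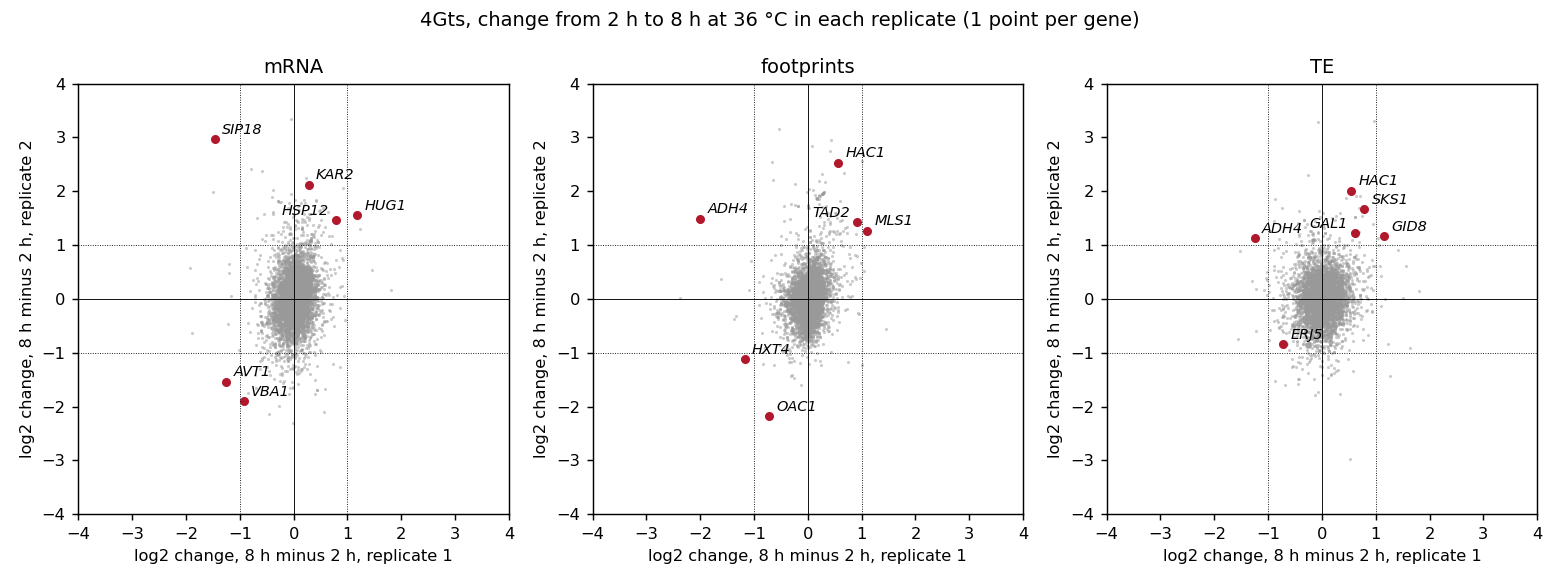
Log2 of 8 h over 2 h in 4Gts for each of 4689 genes, replicate 1 on the x axis and replicate 2 on the y axis, with 1 panel each for mRNA, footprints and TE. Dotted lines mark 2-fold (a log2 of 1) in each direction. The cloud is taller than it is wide in all 3 panels, with standard deviations of 0.50 against 0.24 for mRNA, and few points lie past 2-fold in both pairs.

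Past 2-fold in the same direction in both pairs were 2 mRNAs higher (0.0427% of genes tested) and 1 lower (0.0213%), 2 genes higher (0.0427%) and 1 lower (0.0213%) in footprints, and 3 higher (0.064%) and none lower (0%) in TE. In each measurement 2 genes passed 2-fold in opposite directions in the pairs. At 1.5-fold the counts were 15 mRNAs higher (0.32%) and 20 lower (0.427%), 25 higher (0.533%) and 8 lower (0.171%) in footprints, and 35 higher (0.746%) and 11 lower (0.235%) in TE. With any size of difference, both pairs were higher for 28.5% and lower for 28% of mRNAs, higher for 31.8% and lower for 25.2% of genes in footprints, and higher for 28.2% and lower for 23.8% in TE. These shares are the background for the gene groups below. In WT the shares higher and lower in both pairs were 25.6% and 28.9% for mRNA, 27% and 31% for footprints, and 24.5% and 25.3% for TE.

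Genes of the unfolded protein response, which cells use against misfolded protein in the endoplasmic reticulum, had more mRNA at 8 h in most members. In this pathway the sensor Ire1 splices HAC1 mRNA, whose intron otherwise holds back its translation, and the Hac1 protein then activates genes for chaperones and folding enzymes. Of 21 tested members, 17 had more mRNA at 8 h in both pairs and none had less, against backgrounds of 28.5% and 28%. The median log2 difference was 0.23 in replicate 1 and 1.16 in replicate 2, with 0.13 and 0.04 in WT. For 13 of the 21, both 8 h cultures lay above both 2 h cultures, which held for 11.4% of all genes. None of the 21 passed limma.

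KAR2, which encodes the main Hsp70 chaperone of the endoplasmic reticulum (chromosome X, 381327 to 383375 in RefSeq R64, the assembly of all positions given here), had 574 mRNA RPKM at 2 h and 691 at 8 h in replicate 1, and 454 and 1894 in replicate 2. Both 8 h cultures were above both 2 h cultures, and nearly all of the difference lay in replicate 2. The mean log2 difference was 1.20 with a limma standard error of 0.55 and an adjusted p of 0.999. WT levels were higher throughout, at 2889 and 3352 in replicate 1 and 1969 and 2216 in replicate 2, so that KAR2 in the 8 h culture of 4Gts replicate 2 stood near its WT counterpart. KAR2 footprints were 106 and 132 RPKM in replicate 1 and 119 and 313 in replicate 2. The 8 h cultures were again the higher in both.

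Co-chaperones and oxidoreductases of the same compartment followed the same order. PDI1, a protein disulfide isomerase, had 788 and 1087 mRNA RPKM in replicate 1 and 874 and 2579 in replicate 2. SIL1, a nucleotide exchange factor for Kar2, had 38.3 and 56 RPKM in replicate 1 and 24.7 and 78 in replicate 2. JEM1, a J-protein partner of Kar2, had 11.6 and 19.6 RPKM in replicate 1 and 14.8 and 33.1 in replicate 2. The 8 h cultures lay above both 2 h cultures for PDI1, SIL1 and JEM1, and likewise for LHS1, MPD1 and ERO1. INO1, which makes inositol phosphate for membrane lipid synthesis, was among the 4 exceptions: its mRNA was 475 and 399 RPKM in replicate 1, lower at 8 h, and 448 and 1494 in replicate 2, higher. SEC61, the channel of the translocon, had smaller differences, with 211 and 261 mRNA RPKM in replicate 1 and 238 and 318 in replicate 2.

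Footprints of this group were higher at 8 h in both pairs for 17 of 21 members and lower for 1, SSS1, the small subunit of the translocon, against backgrounds of 31.8% and 25.2%. The median log2 difference in footprints was 0.22 and 0.82, with −0.01 and −0.06 in WT. TE of the group was lower in both pairs for 9 of 21, higher for 3 (HAC1, OST2 and ULI1) and of opposite sign in the pairs for the other 9, with medians of −0.12 and −0.30, against backgrounds of 23.8% lower and 28.2% higher. LHS1, an Hsp70 of the endoplasmic reticulum, had a TE of 0.33 and 0.268 in replicate 1 and 0.412 and 0.299 in replicate 2, both 8 h cultures being below both 2 h cultures. For 5 of the 21 members TE was below in this way, against 12.6% of all genes. Since the mRNA value is the denominator of TE, these values are not separate from the mRNA result. WT TE medians of the group were −0.20 and −0.08, with 11 of 21 members lower in both pairs, so a lower TE of the group was not limited to 4Gts.

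For HAC1 itself (chromosome VI, 75179 to 76147), footprints were higher at 8 h by more than mRNA was. HAC1 footprints were 261 RPKM at 2 h and 380 at 8 h in replicate 1, and 156 and 800 in replicate 2. The 8 h cultures were above both 2 h cultures, and the mean log2 difference was 1.55 with a standard error of 0.76 (limma adjusted p 1). HAC1 mRNA was 2242 and 2282 RPKM in replicate 1 and 2662 and 3658 in replicate 2, a log2 difference of 0.03 and 0.52. HAC1 TE was 0.116 and 0.167 in replicate 1 and 0.0585 and 0.219 in replicate 2, with no overlap between times and a mean log2 difference of 1.27 with a standard error of 0.57 (limma adjusted p 0.996). WT HAC1 TE was 1.02 and 0.881 in replicate 1 and 0.337 and 0.376 in replicate 2, above the 4Gts culture of the same number and time in every case. The tables hold 1 value per gene and do not separate spliced from unspliced HAC1 mRNA.

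**Figure D2:**
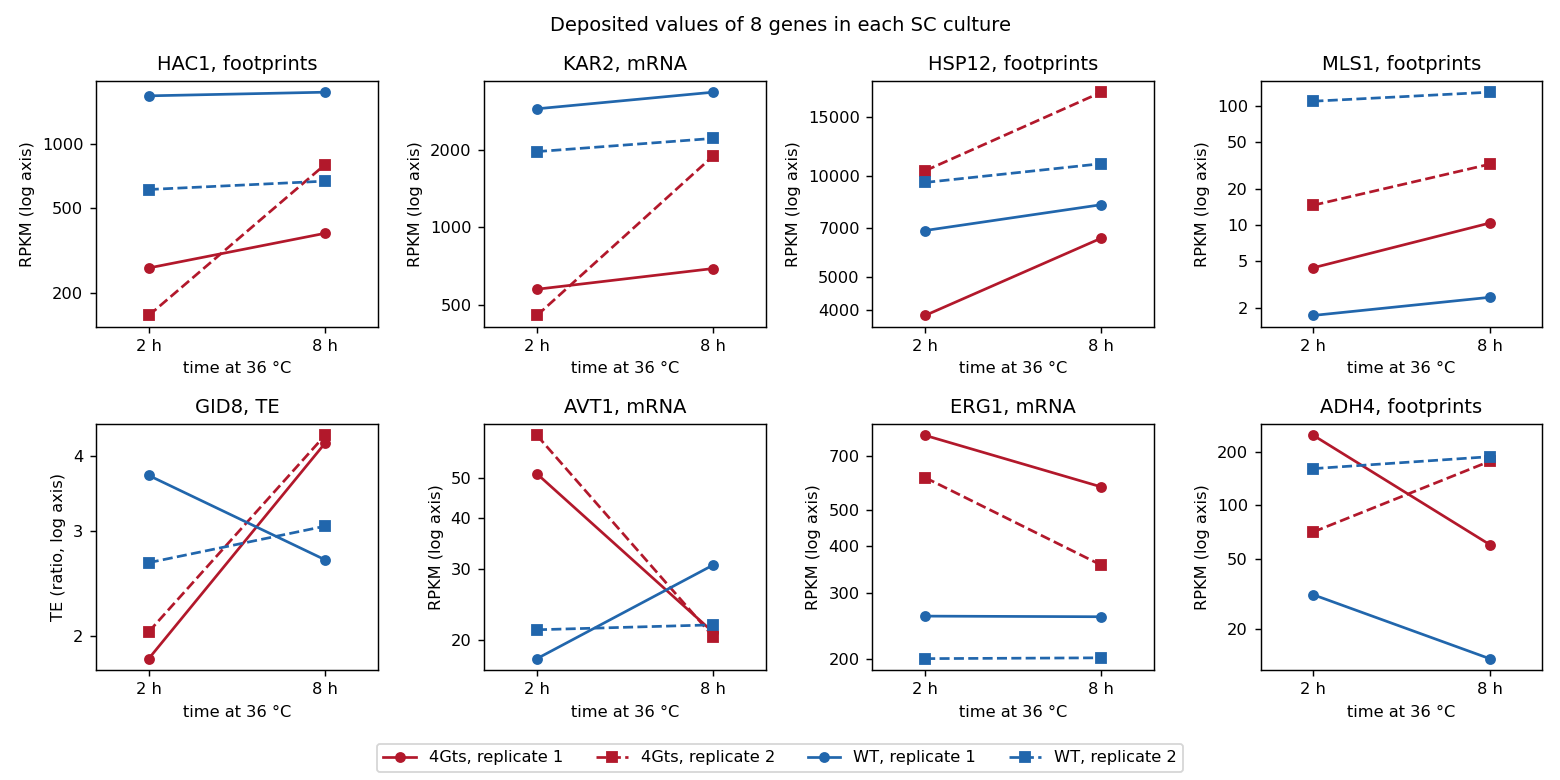
Deposited values at 2 h and 8 h in each of the 8 SC cultures for 8 genes, on log axes: footprint RPKM of HAC1, HSP12, MLS1 and ADH4, mRNA RPKM of KAR2, AVT1 and ERG1, and TE of GID8. Lines join the cultures of a strain with the same replicate number. HAC1, KAR2, HSP12, MLS1 and GID8 slope upward and AVT1 and ERG1 downward in both 4Gts pairs, while ADH4 slopes down in replicate 1 (248 to 60 RPKM) and up in replicate 2 (70.7 to 177 RPKM).

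Heat shock and general stress genes had higher footprints at 8 h in most members, by small amounts in replicate 1. Of 37 chaperone and heat shock genes, 26 had higher footprints in both pairs and none had lower, with medians of 0.14 and 0.56. Their mRNA did not share this direction in replicate 1: 12 of 37 were higher in both pairs, against a background of 28.5%, with medians of −0.08 and 0.57. Of 44 targets of the stress factors Msn2 and Msn4, 30 had higher footprints in both pairs and 1 had lower, with medians of 0.07 and 0.59. WT footprint medians for the stress targets were of the same sign, at 0.10 and 0.13, with 29 of 44 higher in both pairs. The times overlapped for nearly all of these genes: both 8 h cultures lay above both 2 h cultures for 3 of 37 heat shock genes and for none of the 44 stress targets, against 10.6% of all genes in footprints.

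HSP12, a membrane-associated stress protein, was among the stress targets with the largest concordant differences. Its mRNA was 484 and 829 RPKM in replicate 1 and 1308 and 3441 in replicate 2. Its footprints were 3849 and 6535 RPKM in replicate 1 and 10367 and 17746 in replicate 2. Each 8 h value was above the 2 h value of its own number, but the 8 h culture of replicate 1 lay below the 2 h culture of replicate 2 in both measurements. The mean log2 difference in footprints was 0.87 with a standard error of 0.60. SSA4, a heat-induced cytosolic Hsp70, showed how far the pairs could part: its mRNA was 31.6 and 23.7 RPKM in replicate 1 and 69.8 and 275 in replicate 2, with log2 differences of −0.39 and 2.03. HSC82, a cytosolic Hsp90, had footprints of 2539 and 3004 RPKM in replicate 1 and 3402 and 4526 in replicate 2.

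Most genes of central carbon metabolism had more footprints at 8 h in both pairs. Of 27 glycolysis and ethanol genes, 16 had higher footprints and none had lower, with medians of 0.03 and 0.60 and WT medians of −0.02 and 0.13. The replicate 1 median was near the 0.02 of all genes. Their mRNA was higher in both pairs for 7 of 27, against a background of 28.5%, and lower for 3, with medians of −0.07 and 0.58. Of 21 gluconeogenesis and glyoxylate genes, 16 had higher footprints in both pairs and none had lower, with medians of 0.18 and 0.62 and WT medians of −0.16 and 0.05. Of 23 TCA cycle genes, 17 were higher and none was lower, with medians of 0.21 and 0.23 and WT medians of −0.04 and 0.07. Without scaling the replicate 2 TCA cycle median was 0.05, where that of all genes was −0.16. Both 8 h cultures were above both 2 h cultures for 8 of the 27 glycolysis genes, 8 of the 23 TCA cycle genes and 2 of the 21 gluconeogenesis genes, against 10.6% of all genes, so the last share was near the background. LPD1, the dihydrolipoamide dehydrogenase shared by several mitochondrial complexes, had footprints of 279 and 355 RPKM in replicate 1 and 317 and 396 in replicate 2. Its times did not overlap, and its mean log2 difference was 0.44 with a standard error of 0.19.

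MLS1, the malate synthase of the glyoxylate cycle (chromosome XIV, 406358 to 408022), was 1 of the 2 genes past 2-fold higher in footprints in both pairs. It had 4.38 and 10.4 RPKM in replicate 1 and 14.7 and 32.5 in replicate 2. WT MLS1 footprints were 1.74 and 2.47 RPKM in replicate 1 and 110 and 131 in replicate 2, so the replicates differed far more than the times. The 4Gts pairs gave log2 differences of 1.10 and 1.27, with a mean of 1.18. The standard error of 2.18 came from the fit without replicate number and so holds the replicate difference, also that of WT. ADR1, the activator of genes for alcohol and fatty acid use, had footprints of 31.1 and 52.7 RPKM in replicate 1 and 77.4 and 123 in replicate 2. Its TE was 0.491 and 0.684 in replicate 1 and 0.732 and 0.981 in replicate 2. Both measurements were higher at 8 h in each pair, and in the deposited values the 8 h culture of replicate 1 was still below the 2 h culture of replicate 2. The main alcohol dehydrogenase ADH1 had footprints of 2250 and 2934 RPKM in replicate 1 and 2650 and 3645 in replicate 2, with no overlap between times.

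Of 9 hexose transport and glucose sensing genes, 1 had more and 4 had less mRNA in both pairs, with medians of −0.37 and −0.45. WT had 7 of the 9 lower in both pairs. For none of the 9 did both 4Gts 8 h cultures lie below both 2 h cultures, against 9.21% of all genes, and 9 genes are too few to tell these apart. HXT4, a glucose transporter, was the gene past 2-fold lower in footprints in both pairs, with 12.9 and 5.09 RPKM in replicate 1 and 221 and 89.2 in replicate 2. The replicates differed by more than the times. The pairs gave log2 differences of −1.17 and −1.12, with a mean of −1.14, and the standard error of 1.60 holds that replicate difference. Several HXT genes have near-identical copies, so reads may be split between them.

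Proteasome genes had small differences of the same sign in most members. Of 37, 30 had higher and 2 had lower footprints in both pairs, with medians of 0.08 and 0.11, and 19 had more and 2 had less mRNA, with medians of 0.07 and 0.24. In WT, 5 had higher and 16 had lower footprints in both pairs. For 15 of 37 both 8 h cultures exceeded both 2 h cultures in footprints, against 10.6% of all genes. Without scaling of the libraries the replicate 2 footprint median was −0.07, while the median of all genes was then −0.16, so the group median lay above that of all genes under both settings. PRE6, a subunit of the 20S core, had 117 and 151 mRNA RPKM in replicate 1 and 81.3 and 154 in replicate 2. RPN10, a ubiquitin receptor of the regulatory particle, had 140 and 166 RPKM in replicate 1 and 144 and 172 in replicate 2. CDC48, the ATPase that extracts ubiquitinated proteins, had footprints of 567 and 620 RPKM in replicate 1 and 653 and 798 in replicate 2. The times did not overlap for PRE6 and RPN10 in mRNA, nor, after scaling, for CDC48 in footprints.

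Nuclear genes for mitochondrial proteins had small differences. Respiratory chain and ATP synthase mRNAs were higher in both pairs for 20 of 40 genes and lower for 2, with medians of 0.17 and 0.14. QCR7, a subunit of complex III, had 507 and 640 mRNA RPKM in replicate 1 and 470 and 589 in replicate 2, with no overlap between times. Mitochondrial ribosomal protein mRNAs were higher for 29 of 78 and lower for 8, with medians of 0.07 and 0.06 (the latter −0.01 without scaling), where WT had 5 higher and 49 lower. In footprints, 21 of the 78 were higher and 14 lower in 4Gts, and none was higher and 74 were lower in WT, with WT medians of −0.33 and −0.22. Mitochondrial protein import mRNAs were higher for 8 of 31 and lower for 13, with medians of −0.01 and −0.12. MRPL50, a subunit of the large mitochondrial ribosomal subunit, had 11.4 and 17.3 mRNA RPKM in replicate 1 and 16.1 and 20.3 in replicate 2. In WT its level was 47.7 and 34.5 RPKM in replicate 1 and 54.5 and 53 in replicate 2, above every 4Gts value. MRPS12 went the other way, with the lowest log2 mRNA difference of the group in both pairs, −0.90 and −1.41. It had 88.1 and 46.6 mRNA RPKM in replicate 1 and 173 and 61.5 in replicate 2, with no overlap between times.

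Cytosolic ribosomal protein genes had fewer footprints at 8 h, mainly in replicate 2. Of 81 large-subunit genes, 59 were lower in both pairs and none was higher, with medians of −0.05 and −0.60, and of 56 small-subunit genes 39 were lower and none was higher, with medians of −0.03 and −0.61. Background shares were 25.2% lower and 31.8% higher. Both 8 h cultures were below both 2 h cultures for 1 of the 81 and 1 of the 56, against 6.44% of all genes, so the times overlapped for nearly all of them. WT had 33 of 81 and 24 of 56 lower in both pairs. Their mRNAs differed less, with medians of −0.04 and −0.37 for the large subunit and −0.04 and −0.38 for the small subunit, and WT mRNA medians were −0.11 and −0.11 for the large subunit. RPL39, a small protein of the exit tunnel, had footprints of 14506 and 12716 RPKM in replicate 1 and 10592 and 6242 in replicate 2. RPL33B had 2982 and 2575 RPKM in replicate 1 and 2196 and 1190 in replicate 2. Each 8 h value was below the 2 h value of its number, and the 8 h values of replicate 1 stayed above the 2 h values of replicate 2. RPL27A had a TE of 2.88 and 2.41 in replicate 1 and 2.81 and 2.0 in replicate 2, both 8 h cultures being the lower, with a mean log2 difference of −0.30 and a standard error of 0.18. Many ribosomal protein genes, though not all, come as near-identical pairs. Ribosomal protein genes are short, the length class that was lower in replicate 2 footprints. Without them the rho of length and footprint difference in replicate 2 was 0.23.

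Ergosterol synthesis, the yeast counterpart of cholesterol synthesis, had less mRNA at 8 h in most members. Of 26 genes, 20 were lower and 1 was higher, against backgrounds of 28% and 28.5%, with medians of −0.19 and −0.39 and WT medians of 0.00 and −0.08. For 10 of the 26 both 8 h cultures lay below both 2 h cultures, against 9.21% of all genes. ERG1, squalene epoxidase, had 793 and 577 mRNA RPKM in replicate 1 and 611 and 356 in replicate 2, and 260 and 259 RPKM in replicate 1 and 200 and 201 in replicate 2 of WT. The 4Gts level was above that of WT at both times and lower at 8 h than at 2 h, with a mean log2 difference of −0.58 and a standard error of 0.36. ERG28, a scaffold for sterol enzymes, had 375 and 272 RPKM in replicate 1 and 395 and 288 in replicate 2. ERG24, a sterol reductase, had 112 and 85.3 RPKM in replicate 1 and 102 and 77.2 in replicate 2. The times overlapped for none of these 3 genes. Ergosterol footprints were lower in both pairs for 16 of 26 genes, with medians of −0.05 and −0.35, and for 5 of the 26 both 8 h cultures were below both 2 h cultures, against 6.44% of all genes. TE medians were 0.06 and 0.01, the latter −0.11 without scaling.

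Amino acid synthesis genes had lower median mRNA and a higher median TE at 8 h. Since the mRNA value is the denominator of TE, these are not separate results. Gcn4 is the activator of these genes, and its own translation is held back by short upstream reading frames. Of 64 Gcn4 targets, 34 had less mRNA in both pairs and 6 had more, with medians of −0.12 and −0.26 (WT 0.04 and −0.08). TE was higher in both pairs for 34 and lower for 8, with medians of 0.12 and 0.14 (WT −0.02 and 0.07), against backgrounds of 28.2% and 23.8%. WT had 23 of the 64 higher and 12 lower. The replicate 2 TE median was 0.04 after quantile normalization. Without scaling it was 0.02, where that of all genes was −0.08. Both 8 h cultures had a TE above both 2 h cultures for 22 of 64, against 14.1% of all genes. Footprints of the group showed little difference, with medians of 0.05 and −0.06. GCN4 itself had 1858 and 1668 mRNA RPKM in replicate 1 and 2030 and 1445 in replicate 2, and 17.8 and 19.2 footprint RPKM in replicate 1 and 12.9 and 13.1 in replicate 2. LYS5 and LEU1 were among the lower mRNAs. LYS5, which activates an enzyme of lysine synthesis, had 28.2 and 18.2 RPKM in replicate 1 and 35.3 and 22 in replicate 2. LEU1, an isomerase of leucine synthesis, had 204 and 162 RPKM in replicate 1 and 282 and 121 in replicate 2. Neither gene overlapped between times.

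Methionine and sulfur genes had a higher TE in both pairs for 14 of 20 and a lower TE for none, with medians of 0.16 and 0.34, and WT had 8 of 20 higher. Gluconeogenesis and glyoxylate genes had a higher TE for 15 of 21 and a lower TE for 1, with medians of 0.18 and 0.20. MET13, a methylenetetrahydrofolate reductase, had a TE of 0.133 and 0.196 in replicate 1 and 0.156 and 0.214 in replicate 2. Its pairs gave nearly the same log2 difference, 0.56 and 0.57, with a standard error of 0.18 and a limma adjusted p of 0.996. MET10, a subunit of sulfite reductase, had a TE of 0.188 and 0.246 in replicate 1 and 0.200 and 0.252 in replicate 2. The times overlapped for neither gene. Purine and one-carbon genes had a higher TE in both pairs for 17 of 26 and a lower TE for 3, but WT gave 15 and 2. ADE2, an enzyme of purine synthesis, had the largest concordant TE difference of that group: 2.25 and 3.61 in replicate 1 and 1.38 and 4.25 in replicate 2. Its footprints hardly differed, at 133 and 129 RPKM in replicate 1 and 87.7 and 79.1 in replicate 2, while its mRNA was 58.9 and 35.7 RPKM in replicate 1 and 63.7 and 18.6 in replicate 2.

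**Figure D3:**
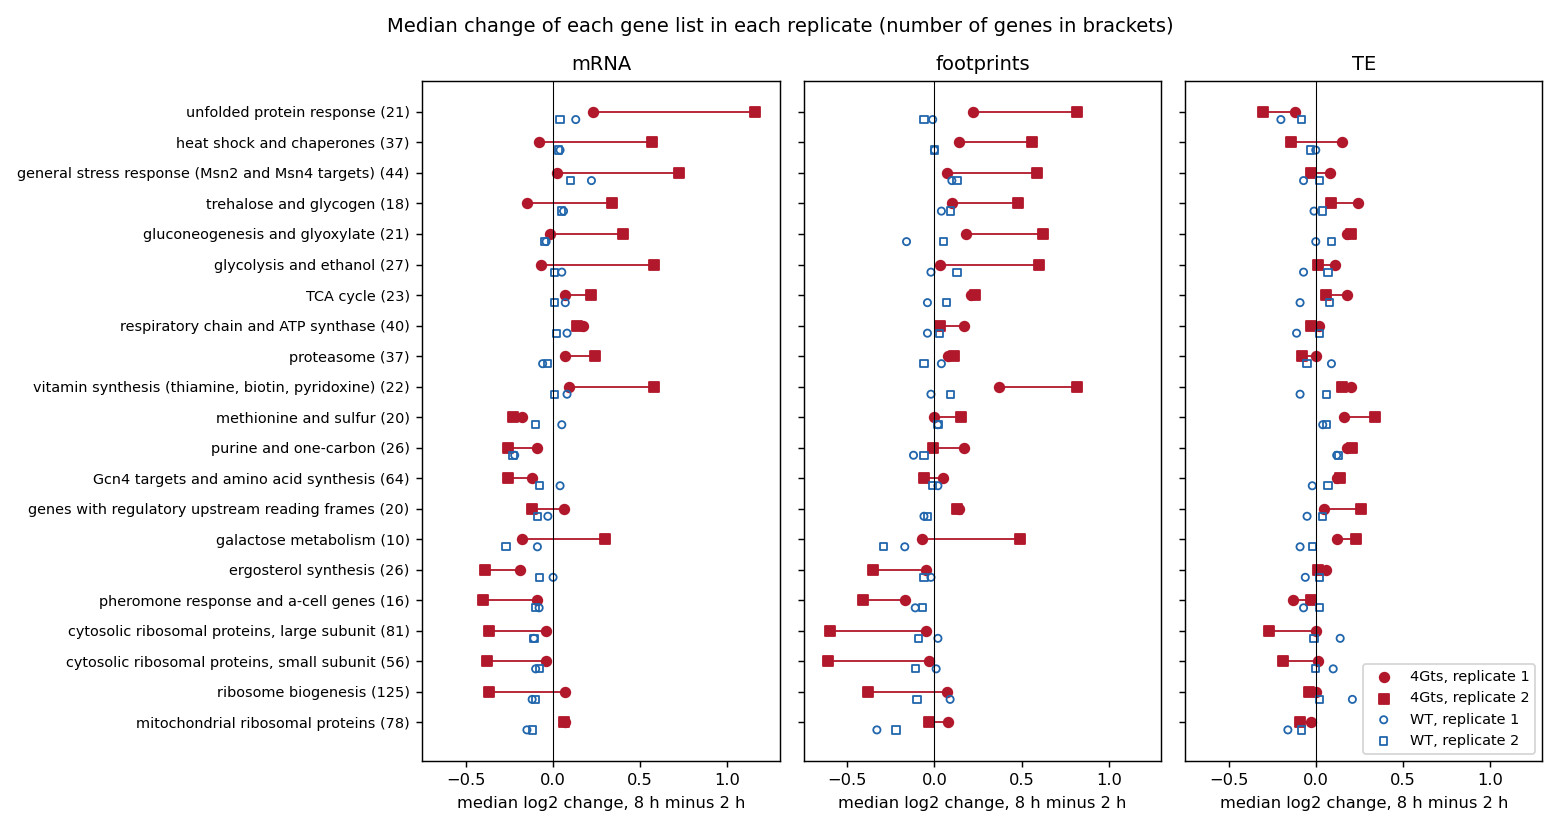
Median log2 of 8 h over 2 h for 21 gene groups in mRNA, footprints and TE, with filled red circles and squares for 4Gts replicates 1 and 2 and open blue symbols for WT. The replicate 2 value lies farther from 0 than the replicate 1 value in most groups, for example 1.16 against 0.23 for unfolded protein response mRNA, and the WT values lie nearer to 0 in most groups.

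Single genes with the largest concordant differences came from scattered functions. AVT1, a vacuolar amino acid transporter (chromosome X, 436802 to 438610), was the mRNA past 2-fold lower in both pairs. It had 51.3 and 20.9 RPKM in replicate 1 and 63.8 and 20.4 in replicate 2. The 2 h cultures were high and both 8 h cultures were within the WT range of 18 to 30.6 RPKM. The mean log2 difference was −1.39 with a standard error of 0.28 (limma adjusted p 0.999), and the difference from the WT time course was −1.75 with a standard error of 0.40. VBA1, a vacuolar basic amino acid transporter, had a like course, with 35.9 and 18.3 RPKM in replicate 1 and 102 and 25.3 in replicate 2, against 16.9 to 26.5 in WT. AVT1 footprints were 31.9 and 20.9 RPKM in replicate 1 and 35.9 and 25.8 in replicate 2, lower at 8 h in both pairs by less than the mRNA.

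GID8, a subunit of the ubiquitin ligase that removes gluconeogenic enzymes (chromosome XIII, 538689 to 540056), was past 2-fold in TE in both pairs, with almost equal log2 differences of 1.15 and 1.17. Its TE was 1.83 and 4.20 in replicate 1 and 2.03 and 4.33 in replicate 2, against 2.65 to 3.71 in WT. The standard error was 0.20 and the limma adjusted p was 0.996, with an unadjusted limma p of 0.000329. GID8 mRNA was 21.9 and 10.4 RPKM in replicate 1 and 36.3 and 17.5 in replicate 2. GID8 footprints were 40.1 and 43.6 RPKM in replicate 1 and 73.6 and 75.6 in replicate 2, so the TE difference lay in the mRNA values. The other genes past 2-fold in TE were the reading frames YGL088W and YBR116C. YGL088W overlaps the small nucleolar RNA gene SNR10, and its 25476 to 54857 mRNA RPKM in 4Gts cannot be told apart from reads of that RNA, so its TE of 0.00377 to 0.0132 is not a translation value for the frame. YBR116C is not in the RefSeq table.

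This make-up was common. Of the 35 genes with TE past 1.5-fold higher in both pairs, 30 had less mRNA in both pairs and none had more, while 23 had more footprints and 2 had fewer. Of the 11 with TE past 1.5-fold lower, all 11 had more mRNA in both pairs. TE contains the mRNA value of the same culture, so error in an mRNA value moves both, and 6 of the 35 and 4 of the 11 had under 20 reads in at least 1 of the libraries. SKS1, a protein kinase, is an example, with a TE of 0.879 and 1.51 in replicate 1 and 0.463 and 1.38 in replicate 2 and an mRNA of 66.7 and 48.4 RPKM in replicate 1 and 189 and 40.6 in replicate 2. YND1, an apyrase of the Golgi, had a TE of 0.203 and 0.35 in replicate 1 and 0.294 and 0.494 in replicate 2, with more footprints at 8 h (11.1 and 13.1 RPKM, then 10.6 and 13.5) and less mRNA. ERJ5, a J-protein of the endoplasmic reticulum, had a TE of 3.21 and 1.84 in replicate 1 and 3.68 and 1.74 in replicate 2, with more mRNA at 8 h in both pairs. The times did not overlap in the TE of SKS1, YND1 or ERJ5. Over all 4689 genes, mRNA and footprints were both higher in both pairs for 682 and both lower for 527, and they pointed in opposite directions for 176 (mRNA higher) and 212 (mRNA lower).

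Other genes with concordant differences were TAD2 and ARO10. TAD2, a tRNA adenosine deaminase that lies beside KAR2 on chromosome X (380249 to 381001), had footprints of 36.2 and 68.1 RPKM in replicate 1 and 40.1 and 96.8 in replicate 2. Both 8 h cultures were higher, the mean log2 difference was 1.17 with a standard error of 0.24 (limma adjusted p 1), and WT held 93.3 to 115 RPKM. ARO10, a decarboxylase of aromatic amino acid breakdown, had 12.6 and 24.1 mRNA RPKM in replicate 1 and 19.5 and 32.2 in replicate 2, with no overlap between times. The mRNAs past 2-fold higher in both pairs, HUG1 and DPC7, rested on few reads, with 8 and 6 reads in their poorest 4Gts libraries. HUG1, a protein of the DNA damage checkpoint, had 3.34 and 8.78 RPKM in replicate 1 and 14 and 40.8 in replicate 2. OAC1, an oxaloacetate carrier of mitochondria, had footprints of 105 and 62.2 RPKM in replicate 1 and 169 and 32.2 in replicate 2, the 8 h cultures being the lower.

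The eIF4G genes, UBR1 and the galactose genes were on the preset list. The labels do not say whether UBR1 or the galactose genes take part in the depletion. TIF4632 mRNA was 0.505 and 0.271 RPKM in replicate 1 and 0.282 and 0.211 in replicate 2, against 20.1 to 29.3 in WT, so it was near 0 at both times. TIF4631 mRNA was 201 and 210 RPKM in replicate 1 and 227 and 405 in replicate 2, against 54.3 to 80.4 in WT. Its footprints were 105 and 110 in replicate 1 and 236 and 413 in replicate 2, against 57.1 to 88.5 in WT. These values speak of mRNA and not of the protein. UBR1, the ubiquitin ligase of the N-degron pathway, had footprints of 248 and 289 RPKM in replicate 1 and 43.3 and 79.4 in replicate 2. WT held 410 to 784. GAL1, the galactokinase induced by galactose, had 936 and 591 mRNA RPKM in replicate 1 and 169 and 104 in replicate 2, lower at 8 h in both pairs. WT held 1420 to 1927. The galactose genes did not share this direction. GAL7 and GAL10 mRNA had opposite signs in the pairs (log2 −0.17 and 0.28, and −0.29 and 0.36). Of 10 galactose genes, 2 had more and 4 had less mRNA in both pairs, with medians of −0.18 and 0.30. GAL1 footprints gave log2 differences of −0.04 and 0.59. GAL1 TE was 3.59 and 5.44 in replicate 1 and 1.84 and 3.99 in replicate 2, with both 8 h cultures above both 2 h cultures. Its mean log2 difference was 0.92 with a standard error of 0.33. CLN3, a G1 cyclin with an upstream reading frame, had a TE of 0.0288 and 0.0354 in replicate 1 and 0.0326 and 0.0642 in replicate 2, against 0.141 to 0.225 in WT.

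Setting 4Gts against the WT culture of the same number and time, the spread of the log2 difference over genes was smaller at 8 h than at 2 h in both numbers and all 3 measurements. For mRNA it was 0.72 at 2 h and 0.67 at 8 h in replicate 1 and 0.86 and 0.61 in replicate 2. For footprints it was 0.80 and 0.74 in replicate 1 and 0.86 and 0.65 in replicate 2, and for TE 0.49 and 0.40, and 0.57 and 0.44. No test was made of these values. Each 4Gts library was shallower at 2 h than the 8 h library of its number. Footprint libraries had 4.59 against 7.05 M reads in replicate 1 and 5.48 against 9.48 M in replicate 2. Those of mRNA had 13.1 against 14.9 M and 3.92 against 12.2 M. WT was also shallower at 2 h except for mRNA in replicate 1 (14.3 against 11.6 M). The part of depth in this spread was not tested. The median log2 difference of unfolded protein response mRNAs from WT was −1.68 at 2 h and −1.34 at 8 h in replicate 1, and −0.85 and 0.24 in replicate 2. That of large-subunit ribosomal protein footprints was 1.17 and 1.11 in replicate 1 and 1.69 and 1.14 in replicate 2, and that of ergosterol mRNAs 0.82 and 0.70, and 0.90 and 0.77. These examples were chosen after their values were seen, and not every group behaved so: the median of unfolded protein response footprints went from −0.32 to 0.59 in replicate 2, and that of large-subunit ribosomal protein mRNAs from 0.88 to 0.95 in replicate 1. Of 42 groups, the median lay nearer to 0 at 8 h in both numbers for 13 in mRNA, 21 in footprints and 14 in TE, and in neither number for 7, 2 and 11. These values share the 4Gts cultures with the time differences given above and are no separate support for them.

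**Figure D4:**
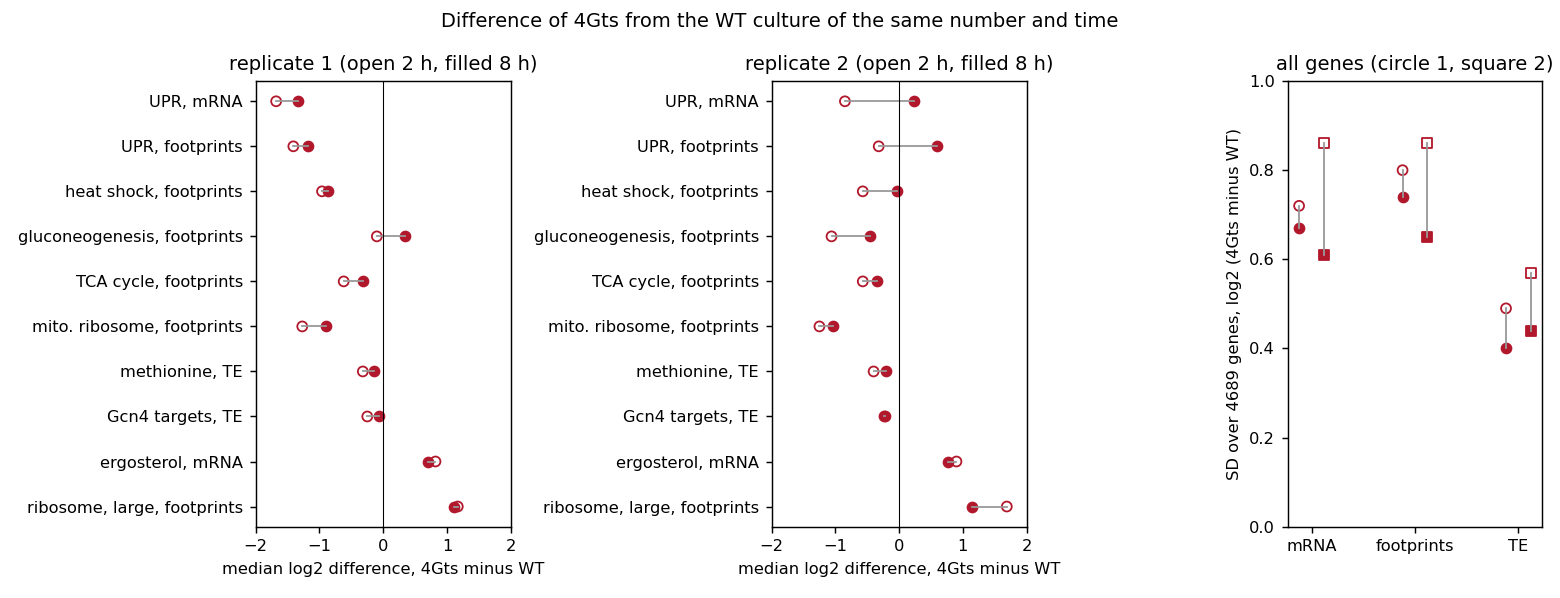
Median log2 of 4Gts over the WT culture of the same number and time for 10 combinations of gene group and measurement picked after their values were seen, with open symbols at 2 h and filled symbols at 8 h, beside the standard deviation of that difference over all tested genes. The standard deviation is smaller at 8 h in each of the 6 comparisons, for example 0.61 against 0.86 for mRNA in replicate 2. The 4Gts libraries were shallower at 2 h than at 8 h.

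A few genes had large differences of opposite sign in the pairs. SIP18, a stress-linked phospholipid-binding protein, had 17.3 and 5.58 mRNA RPKM in replicate 1 and 35.5 and 273 in replicate 2. ADH4, an alcohol dehydrogenase, had footprints of 248 and 60 RPKM in replicate 1 and 70.7 and 177 in replicate 2. Both genes were lower at 8 h in 1 pair and higher in the other by more than 2-fold. STE2, the receptor for alpha factor and an a-cell marker, had 1357 and 1134 mRNA RPKM in replicate 1 and 477 and 158 in replicate 2. Pheromone response and a-cell genes as a group had less mRNA in both pairs for 8 of 16 and more for none. WT had 9 of the 16 lower and 1 higher in both pairs. For none of the 16 did both 4Gts 8 h cultures lie below both 2 h cultures, against 9.21% of all genes. The a-cell marker sum given above, which is not separate from this group, was lower at 8 h in replicate 2 but not in replicate 1.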

How the data were processed

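Members and gene lists were chosen with earlier results of these data known. The submitters' processing notes name TopHat, DESeq and the build sacCer3, with no versions; how reads were counted per gene and whether strand was used is not stated there. The authors deposited RPKM values, each library in its own column, and, for each SC culture, a TE ratio, which matched the footprint RPKM divided by the mRNA RPKM (largest log2 deviation 7.06e-12, 37852 values). Names and positions came from a RefSeq table (assembly R64), which matched 6008 of 6692 genes.

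Libraries were scaled by median ratio and taken as log2(RPKM + 1), which understates differences of low genes. TE of a culture was log2 footprints minus log2 mRNA. The limma package 3.58.1 in R 4.3.3 fitted 1 mean per strain and time over the 8 SC cultures, so WT helps estimate the spread. No count test was run: after shortening genes by 24 nt, 78.8% to 85.3% of low values (up to 10 reads) were whole within 0.05 reads. Depths come from these steps. The fit was tested on simulated data.

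Named genes were a preset list, then those with the largest lesser difference of both pairs in each direction, per measurement and per list, then the largest differences from the WT time course and the largest opposite pairs. SEC61, INO1, AVT1 footprints, and other measurements of named genes were added after their values were seen. Of 45 lists, 42 had at least 8 tested members. Alternatives covered the pseudocount, low-value filter, scaling, fold threshold, replicate block and leaving out each culture. Promoter motifs were not searched here.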

Additional observations from a re-analysis of the deposited data

Results flagged for a closer look

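In 6 gene groups the medians of both 4Gts pairs lay on one side of 0 and those of both WT pairs on the other. The difference between the strains was not tested for any of them. Unfolded protein response footprints had medians of 0.22 and 0.82 in 4Gts and −0.01 and −0.06 in WT, 0.56 apart on average. Mitochondrial ribosomal protein mRNAs had 0.07 and 0.06 against −0.15 and −0.12, 0.20 apart, and −0.01 in replicate 2 of 4Gts without scaling. Proteasome mRNAs had 0.07 and 0.24 against −0.06 and −0.03, 0.20 apart. G2/M and mitotic exit mRNAs had 0.11 and 0.14 against −0.12 and −0.02, 0.20 apart, and −0.07 in replicate 2 of 4Gts after quantile normalization. Footprints of genes with regulatory upstream reading frames had 0.14 and 0.13 against −0.06 and −0.04, 0.18 apart, and −0.03 in replicate 2 of 4Gts without scaling. TE of galactose genes had 0.12 and 0.23 against −0.09 and −0.02, 0.23 apart.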

How the results depend on the processing

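No call was made under most alternatives. In TE, YPR108W-A passed against WT with no scaling (log2 difference 3.34, limma adjusted p 0.0478) and with the authors' deposited TE (3.49, limma adjusted p 0.0186). In the main setting its WT pairs were lower at 8 h (−2.72 and −1.68) by more than its 4Gts pairs were higher (1.42 and 0.90). Without 4Gts 8 h replicate 1, which leaves 1 culture in that group, YBR191W-A had a TE log2 difference of 3.13 over time and 4.32 against WT. Neither YPR108W-A nor YBR191W-A is in the RefSeq table. Leaving out 1 culture at a time gave 0 to 1 calls for TE, over time and against WT, and 0 to 0 elsewhere. Same-numbered 4Gts cultures deviated together (r = 0.77, 0.88 and 0.43 for mRNA, footprints and TE over genes). Those of 4Gts and WT did so too, but the labels do not say what a number shares. A replicate block gave 0 calls, with lowest adjusted p 0.296, 0.109 and 0.353 and 612, 666 and 452 genes at an unadjusted p under 0.05. Genes past 2-fold in both pairs, 3 per measurement, numbered 5 for footprints at a pseudocount of 0.1 RPKM and 1, 0 and 1 (mRNA, footprints, TE) at 5 RPKM. They numbered 12, 17 and 43 with no filter, 0 for mRNA and 0 for footprints at a mean of at least 50 RPKM, 1 for footprints and 1 for TE after quantile normalization, and 5 for the deposited TE. At 1.5-fold they numbered 35, 33 and 46, and at 3-fold 0, 0 and 0. Requiring 20 reads, chosen after seeing the data, gave 3, 2 and 4. Of 889 recomputed values of named genes 795 moved by less than the replicate spread, as did 780 of 921 list medians. Without scaling the replicate 2 medians of all genes were −0.06, −0.16 and −0.08. Depth limits genes near 10 RPKM, and 2 replicates limit all.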

Other observations

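Groups not described above gave the following values. Vitamin synthesis genes had higher footprints in both pairs for 13 of 22 and lower for 2, with medians of 0.37 and 0.82. SNZ2, of the vitamin B6 pathway, had footprints of 14.1 and 28.3 RPKM in replicate 1 and 24.1 and 34.1 in replicate 2, and may share reads with a near-identical copy. Trehalose and glycogen genes had higher footprints for 14 of 18 and lower for none, with medians of 0.10 and 0.48, and WT had 12 of 18 higher. Their mRNA was higher in both pairs for 2 of 18, with medians of −0.15 and 0.34. Iron genes had less mRNA in both pairs for 8 of 16 and more for none. FLO11, a cell-surface flocculin, had 81.9 and 226 mRNA RPKM in replicate 1 and 21.4 and 30 in replicate 2.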
